A study of Mus musculus with 36 samples.

Results

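The genes examined were the apolipoproteins *Apoa1*, *Apoa2*, *Apoa4*, *Apoa5*, *Apob*, *Apoc1*, *Apoc3*, *Apoe* and *Apoh* together with *Mttp*, which loads lipid onto nascent particles. They were taken by symbol from a table of fragment counts, as 10 of 54232 genes, and all 10 were among the 14932 genes with enough counts to be tested. RNA was sequenced from 3 kinds of sample of each of 12 female mice of the C57BL6 background. Full liver (L) samples were pieces cut from the median lobe after perfusion, the cell suspension (CS) was the washed product of collagenase digestion of the remaining lobes, and primary hepatocytes (PH) were those cells after 24 h on collagen. HNKO mice carried floxed *Nampt* alleles and Alb-Cre, which acts only in cells that express albumin, and WT mice were floxed littermates. The mice, aged 10 to 12 weeks when it began, were all kept on a purified diet based on L-amino acids, which lasted 3 to 5 weeks. There were 6 HNKO L, 5 WT L, 6 HNKO CS, 6 WT CS, 6 HNKO PH and 6 WT PH libraries, because the liver of WT mouse 558 was left out. Comparisons of CS or PH with L also compare lobes, and in these bulk samples fewer cells of a type and less RNA per cell cannot be told apart.

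Lipoproteins carry triglyceride and cholesterol through plasma, and the hepatocyte is the main source of very low density lipoprotein (VLDL). *Apob* encodes the single large protein around which a VLDL particle is built, and the microsomal transfer protein encoded by *Mttp* lipidates it in the endoplasmic reticulum. The small exchangeable apolipoproteins move between particles: *Apoa1* and *Apoa2* are the main proteins of high density lipoprotein (HDL), *Apoe* is a ligand of particle receptors, *Apoc1* and *Apoc3* slow the clearance of triglyceride-rich particles, *Apoa5* favours their lipolysis, and *Apoa4* accompanies their secretion. *Apoh* encodes a phospholipid-binding plasma protein that is not a core lipoprotein component.

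Positions are given on GRCm38 from GENCODE M21. *Apoa1* (ENSMUSG00000032083.8), *Apoc3* (ENSMUSG00000032081.10), *Apoa4* (ENSMUSG00000032080.6) and *Apoa5* (ENSMUSG00000032079.12) lie in that order within 43.3 kb at chr9:46228580-46271919, with *Apoc3* on the minus strand. *Apoc1* (ENSMUSG00000040564.14) and *Apoe* (ENSMUSG00000002985.16) are neighbours within 9.71 kb at chr7:19689481-19699188, both on the minus strand. The other genes stand alone: *Apoa2* (ENSMUSG00000005681.12) at chr1:171225054-171226379, *Apob* (ENSMUSG00000020609.14) at chr12:7977648-8016835, *Apoh* (ENSMUSG00000000049.11) at chr11:108343354-108414396 and *Mttp* (ENSMUSG00000028158.14) at chr3:138089854-138144968. Exons of *Apoa4*, *Apoa5*, *Apoh* and *Mttp* overlap exons of a gene on the opposite strand. Whether strand was used in counting is not given in the sources used here, so the overlap could affect those 4 counts in a direction not known here.

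The sequence upstream of 4 genes is shown, because *Apoa4* was the only gene with a higher level in WT cultures than in WT liver, *Apoa5* had the largest fall there, *Apob* had nearly the same level in HNKO and WT cultures, and *Apoa2* was lower in every HNKO liver than in any WT liver. The bases come from RefSeq promoter windows on GRCm38.p6, which matched 8 of the 10 genes. Only bases before both the RefSeq start and the GENCODE gene start are printed, on the plus strand, 5′ to 3′. Capitals mark matches, on either strand, to the HNF4A-type motif CAAAGNNCA, the forkhead motif TGTTTAC and the TATA motif TATAAA, none of which overlapped another.
Apoa2, chr1:171224804-171225053: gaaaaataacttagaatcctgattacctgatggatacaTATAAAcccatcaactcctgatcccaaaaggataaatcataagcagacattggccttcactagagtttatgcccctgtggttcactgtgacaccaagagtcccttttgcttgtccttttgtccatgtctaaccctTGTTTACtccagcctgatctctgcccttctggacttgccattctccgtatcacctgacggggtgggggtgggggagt
Apoa4, chr9:46240594-46240695: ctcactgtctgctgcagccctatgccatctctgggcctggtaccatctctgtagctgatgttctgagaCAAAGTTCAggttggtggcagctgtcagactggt
Apoa5, chr9:46268383-46268632: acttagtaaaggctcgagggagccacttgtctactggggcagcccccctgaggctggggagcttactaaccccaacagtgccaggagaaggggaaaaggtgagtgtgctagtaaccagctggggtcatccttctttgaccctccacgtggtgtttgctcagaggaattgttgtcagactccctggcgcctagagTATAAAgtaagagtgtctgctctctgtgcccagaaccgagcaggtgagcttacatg
Apob, chr12:7977427-7977647: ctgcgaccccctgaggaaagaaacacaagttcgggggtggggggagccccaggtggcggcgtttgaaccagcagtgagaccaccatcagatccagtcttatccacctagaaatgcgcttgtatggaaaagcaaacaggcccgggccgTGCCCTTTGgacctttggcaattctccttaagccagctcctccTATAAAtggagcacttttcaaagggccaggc

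The *Apoa4* stretch held a match to the HNF4A-type motif 34 bases before the gene start. *Apob* had one on the minus strand and a TATA motif whose first base lay 31 bases before its start, *Apoa5* had a TATA motif 56 bases before its start, and *Apoa2* had a forkhead match at 77 bases and a TATA match at 212 bases. Among all 32851 windows of 300 bases, 6.36% held CAAAGNNCA, 3.65% held TGTTTAC and 13.6% held TATAAA. The 8 matched genes had 12 windows, of which 3 held the first motif, 3 the second and 5 the last, and 2 windows of *Apoa5* overlap and share the same TATA match. A match describes these letters only.

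The 35 libraries held 8698735 to 20350519 counts each. *Nampt*, the targeted gene, was lower in HNKO than in WT in every sample type, by 0.99 ± 0.21 (log2 ± SE, edgeR quasi-likelihood adjusted p = 0.0142) in L, 1.23 ± 0.20 (adjusted p = 0.00585) in CS and 1.34 ± 0.20 (adjusted p = 0.000441) in PH. The left-out liver of WT mouse 558 had 2547422 counts and a mean Spearman correlation of 0.797 with the other libraries of its sample type, against 0.921 to 0.938 for the 35 libraries used. All 11 hepatocyte markers found in the table were detected in every group, at summed levels of at least 33660 CPM, that is, counts scaled to a common library size. A further HNKO mouse and a WT mouse stood apart. Among the HNKO mice, 552 had the lowest value of 8 of the 10 genes in L, 9 in CS and 6 in PH, and its liver held 1420 CPM of 8 cholangiocyte markers, against 99.2 to 385 CPM in the other HNKO livers. Among the WT mice, 544 had the lowest value of 6 genes in PH, and its culture held 242 CPM of cholangiocyte markers against 38.0 to 69.1 CPM in the other WT cultures.

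In full liver these genes were among the most abundant transcripts. Together they took 2.98 to 4.22% of all counts in HNKO L and 4.09 to 4.62% in WT L. By mean CPM *Apoe* had rank 3 of all genes in HNKO L and rank 4 in WT L. Levels of different genes are compared as CPM per kb of exon. On that scale the order in HNKO L was *Apoa2* with a mean of 7095, *Apoe* with 6207, *Apoa1* with 6022, *Apoc1* with 3195, *Apoc3* with 1417, *Apoh* with 1356, *Apoa5* with 552, *Apoa4* with 448, *Apob* with 426 and *Mttp* with 68.3 CPM per kb. In WT L the same genes led, with *Apoa2* at 11335, *Apoe* at 8079 and *Apoa1* at 7148 CPM per kb, and *Mttp* was last at 84.7 CPM per kb. The ranges of *Apoa2* and *Apoe* overlapped in HNKO L and did not in WT L. Those of *Apoe* and *Apoa1* overlapped in both. *Apoa5* and *Apoa4* overlapped in both genotypes. In HNKO L so did *Apoc1* and *Apoc3*, *Apoc3* and *Apoh*, and *Apoa4* and *Apob*.

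The order of the means changed in culture. In HNKO PH *Apoe* led with 1756 CPM per kb, followed by *Apoa1* with 1126 and *Apoa2* with 1002, and in WT PH *Apoa1* led with 2322 CPM per kb, followed by *Apoe* with 1727 and *Apoa4* with 1665. The ranges of these leading genes overlapped, *Apoe* with *Apoa1* and *Apoa1* with *Apoa2* in HNKO PH. In WT PH *Apoa1* overlapped *Apoe*, *Apoe* overlapped *Apoa4*, and *Apoa4* overlapped *Apoa2*, the next gene. *Apoa5* was last at 14.6 CPM per kb in HNKO PH and 21.4 in WT PH, and its range overlapped that of *Mttp* in both. The share of all counts taken by the 10 genes was 1.06 to 1.62% in HNKO PH and 1.26 to 2.08% in WT PH. In CS it was 3.15 to 4.30% for HNKO and 3.61 to 4.61% for WT, which overlapped the shares in L.

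**Figure D1:**
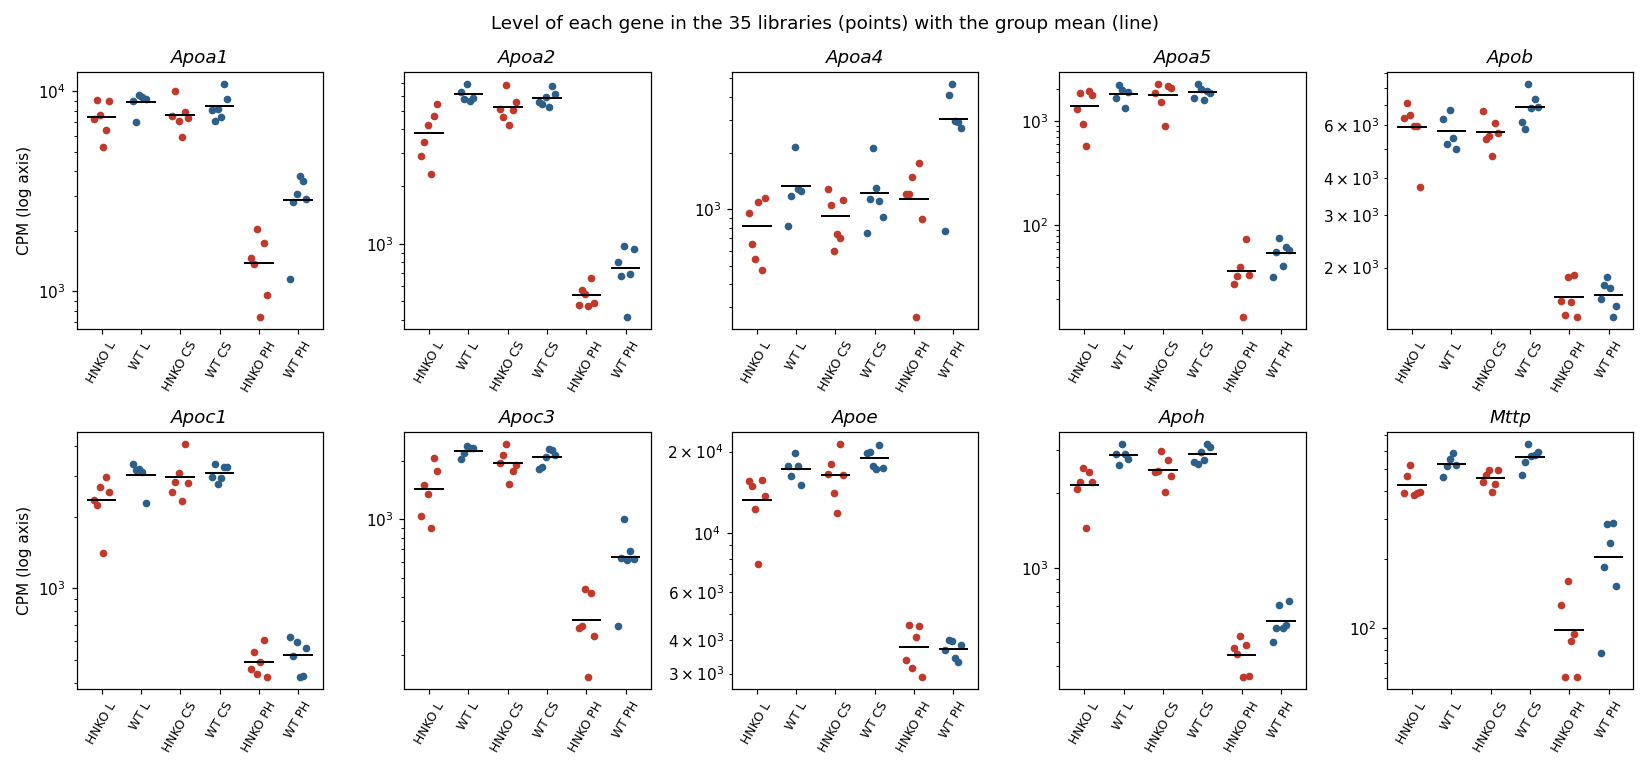
Level of each of the 10 genes in CPM (log axis) in the 35 libraries, by genotype and sample type, with 1 point for each mouse and a line at the group mean. For 9 of the genes every PH point lies below every L and CS point of its genotype, whereas 5 of the 6 WT PH points of *Apoa4*, from 2718 to 4692 CPM, lie above all WT L and WT CS points.

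In full liver the comparison of HNKO with WT addresses loss of *Nampt* in hepatocytes in the intact organ. None of the 10 genes passed the threshold of adjusted p = 0.05, on a background of 1.51% of all tested genes called in either direction. An unadjusted p under 0.05 was found for 5 of the 10 and for 2573 of all 14932 tested genes. The log2 fold change was negative for 9 of the 10. The median was -0.38, against -0.001 over all tested genes and -0.33 over the 11 hepatocyte markers. *Apoa2* had the lowest adjusted p, with 2337, 3800 and 5386 CPM in HNKO L (lowest, median and highest of 6). The 5 WT livers had 5598, 5772, 5827, 6300 and 6936 CPM. Every HNKO liver lay below every WT liver, which held for 1.42% of all tested genes, and the log2 fold change was -0.68 ± 0.18 (SE) with an edgeR adjusted p of 0.0504. It passed under 6 of 20 alternatives, among them DESeq2 (adjusted p = 0.0142) and a limma voom fit with the mouse as a block (adjusted p = 0.0366), and over all 20 the adjusted p was 0.0139 to 0.19. Without mouse 552 the log2 fold change was -0.56 with an adjusted p of 0.157.

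*Apoh* also had no overlap between genotypes, with 1452, 2228 and 2529 CPM in HNKO L, against 2598, 2745, 2893, 2897 and 3162 CPM in WT L. Its log2 fold change was -0.40 ± 0.13 (edgeR adjusted p = 0.0966), and DESeq2 gave an adjusted p of 0.0481. *Apoc3* had 903, 1422 and 2073 CPM in HNKO L, against 2042, 2181, 2311, 2333 and 2388 CPM in WT L. All but the highest HNKO liver lay below the WT range, with a log2 fold change of -0.65 ± 0.23 (adjusted p = 0.136). *Apoe* had 7682, 14265 and 15667 CPM in HNKO L, against 15026, 16208, 17625, 17740 and 19764 CPM in WT L, with a log2 fold change of -0.38 ± 0.16 (adjusted p = 0.218). *Apoc1*, its neighbour, differed by -0.35 ± 0.16 (adjusted p = 0.231). The remaining genes had overlapping groups, and the log2 fold changes were -0.72 ± 0.36 for *Apoa4* (adjusted p = 0.305), -0.38 ± 0.30 for *Apoa5*, -0.31 ± 0.22 for *Mttp* and -0.25 ± 0.23 for *Apoa1*.

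*Apob*, the structural protein of VLDL, was the exception in direction. It had 3737, 6151 and 7125 CPM in HNKO L, against 4984, 5172, 5432, 6308 and 6728 CPM in WT L, a log2 difference of 0.05 with a 95% interval of -0.23 to 0.34. The HNKO range enclosed the WT range. Other markers moved with genotype in the same livers. The summed level of 11 hepatocyte markers was 108500 to 187500 CPM in HNKO L and 169500 to 207800 CPM in WT L, and the 8 cholangiocyte markers summed to 99.2 to 1420 CPM in HNKO L and 63.2 to 84.3 CPM in WT L, with 3 of the 8 called higher in HNKO. No listed marker of either type was at 0 in a whole group. The part of these cell types in the liver values was not tested.

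In the cell suspension none of the 10 genes passed, where only 0.0268% of all tested genes were called. All 10 log2 fold changes were negative, from -0.06 for *Apoc1* to -0.41 ± 0.35 for *Apoa4*. The median was -0.18, against 0.01 over all genes and -0.15 over the 11 hepatocyte markers. *Mttp* had 396, 452 and 495 CPM in HNKO CS, against 470, 572 and 643 CPM in WT CS, a log2 fold change of -0.32 ± 0.21 (edgeR adjusted p = 0.529). *Apob* had 4729, 5588 and 6710 CPM in HNKO CS, against 5836, 6879 and 8278 CPM in WT CS, a difference of -0.28 ± 0.13 (adjusted p = 0.339). *Apob* was the only one of the 10 with an unadjusted p under 0.05, where 2135 of all 14932 tested genes had one. Every HNKO suspension lay below the WT median for both genes, but the groups overlapped. *Apoa2* and *Apoc3*, which stood lowest against WT in L beside *Apoa4*, differed here by -0.15 ± 0.17 and -0.09 ± 0.22. The hepatocyte markers summed to 129900 to 197400 CPM in HNKO CS and 170400 to 221800 CPM in WT CS, and the 8 cholangiocyte markers to 49.1 to 195 CPM in HNKO CS and 28.9 to 48.4 CPM in WT CS, without overlap. The endothelial markers summed to 672 to 1524 CPM in HNKO CS and 451 to 896 CPM in WT CS. The Kupffer cell markers summed to 1863 CPM in the suspension of HNKO mouse 552, 430 to 630 CPM in the other HNKO suspensions and 251 to 784 CPM in WT CS. None of these markers was called, and their part in the values was not tested.

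In primary hepatocytes 5 of the 10 genes were lower in HNKO than in WT and none was higher, on a background of 7.67% of all tested genes called lower and 5.14% called higher. The 5 were *Apoa1*, *Apoa4* and *Apoc3* of the chromosome 9 cluster, *Mttp* and *Apoh*. The median log2 fold change of the 10 genes was -0.52 against 0.01 over all genes. *Apoa4* had 267, 1212 and 1774 CPM in HNKO PH, against 765, 2945 and 4692 CPM in WT PH. All 6 HNKO cultures lay below 5 of the WT cultures, the lowest WT value being that of mouse 544. It was 2.65-fold lower, a log2 fold change of -1.41 ± 0.36 (edgeR adjusted p = 0.00937).

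*Apoa1* had 744, 1420 and 2052 CPM in HNKO PH, against 1150, 2976 and 3765 CPM in WT PH, and was 2.06-fold lower (log2 -1.04 ± 0.22, adjusted p = 0.00252). *Apoc3* had 154, 279 and 440 CPM in HNKO PH, against 284, 631 and 998 CPM in WT PH, and was 2.11-fold lower (log2 -1.08 ± 0.22, adjusted p = 0.00224). For both, the WT culture of mouse 544 fell inside the HNKO range and the next WT value lay above it. *Mttp* had 60.6, 90.5 and 160 CPM in HNKO PH, against 77.7, 210 and 287 CPM in WT PH, and was 2.08-fold lower (log2 -1.05 ± 0.21, adjusted p = 0.00209). Its groups also overlapped in the second lowest WT culture, at 152 CPM. *Apoh* had 361, 460 and 529 CPM in HNKO PH, against 500, 579 and 734 CPM in WT PH, a smaller 1.38-fold difference (log2 -0.46 ± 0.12, adjusted p = 0.0135). None of the 10 genes had every HNKO culture below every WT culture, which held for 1.21% of all tested genes.

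The calls in PH used a spread shared by all 6 groups. In an edgeR fit of the 12 PH libraries alone 0 of the 10 genes passed, with adjusted p from 0.0609 for *Apoc3* to 0.0746 for *Apoa4* among the 5, and 3 genes passed in all, against 1913 with all groups. The log2 fold changes there were -1.40 for *Apoa4*, -1.04 for *Apoa1*, -1.07 for *Apoc3*, -1.05 for *Mttp* and -0.46 for *Apoh*. Exact two-sided permutation tests of log2 CPM over the 12 cultures, of which 30 were run without adjustment over genes and sample types and which can reach p = 0.00216 at least, gave exact p = 0.0238 for *Apoa4*, 0.0173 for *Apoa1*, 0.013 for *Apoc3*, 0.026 for *Mttp* and 0.00433 for *Apoh*. Without the WT culture of mouse 544, an alternative chosen after seeing the data, the log2 fold changes of the 5 were -1.61, -1.21, -1.23, -1.23 and -0.52, and all passed. *Apoh* missed the threshold without mouse 554 (adjusted p = 0.0568) or without mouse 564 (adjusted p = 0.0526), and *Apoa1* with all 36 libraries in the fit (log2 -1.04, adjusted p = 0.0833). Small values in the exact tests were not limited to the genes called in PH. Among differences that edgeR did not call, exact p was 0.00649 for *Apoa2* and *Apoh* in L and for *Mttp* in CS. Others were larger, up to exact p = 0.972 for *Apoe* in PH.

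The other 5 genes did not pass. *Apoa2* differed by -0.48 ± 0.17 (edgeR adjusted p = 0.0641, and 0.0346 with DESeq2), with 473, 518 and 664 CPM in HNKO PH and 413, 747 and 973 CPM in WT PH. *Apoa5* differed by -0.55 ± 0.29 (adjusted p = 0.206), at 13.3, 33.3 and 73.5 CPM in HNKO PH and 31.8, 56.8 and 75.7 CPM in WT PH. *Apob* had 1364, 1540 and 1881 CPM in HNKO PH, against 1368, 1640 and 1860 CPM in WT PH. The log2 difference for *Apob* was -0.02, with a 95% interval of -0.30 to 0.25. For *Apoe* it was 0.02 with an interval of -0.29 to 0.34, and for *Apoc1* -0.09 with an interval of -0.40 to 0.21. The intervals of *Apob*, *Apoe* and *Apoc1* hold no 2-fold difference in either direction.

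**Figure D2:**
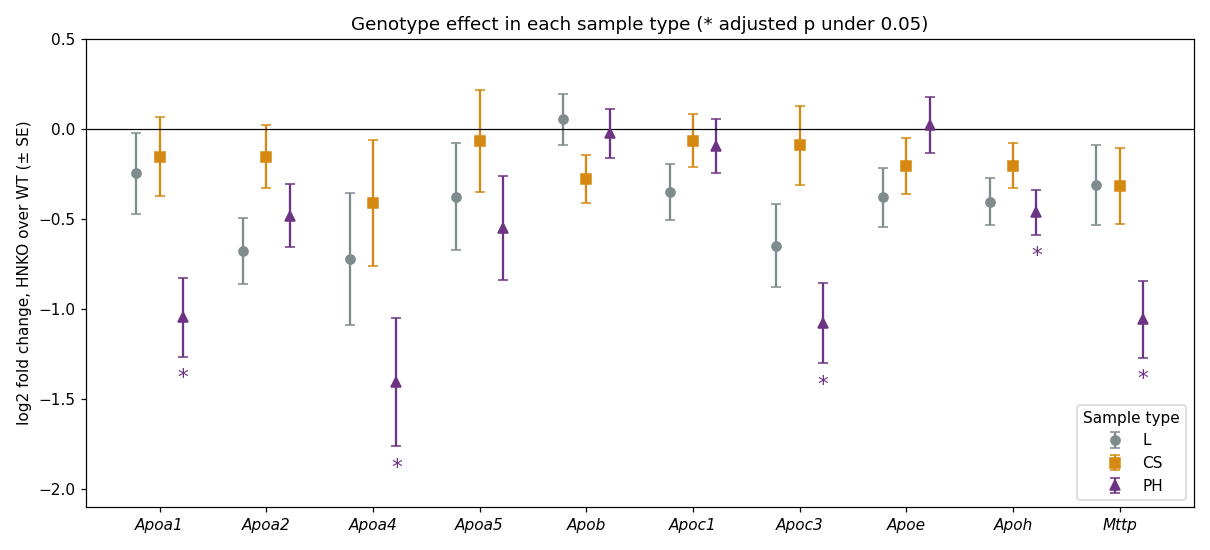
Log2 fold change of HNKO over WT for each of the 10 genes in L, CS and PH, with bars of 1 SE and a star where the edgeR adjusted p was under 0.05. The 5 starred values are all in PH, at -1.41 for *Apoa4*, -1.04 for *Apoa1*, -1.08 for *Apoc3*, -1.05 for *Mttp* and -0.46 for *Apoh*.

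Other liver-cell genes moved with genotype in the same cultures. Of the 11 hepatocyte markers 6 were called lower in HNKO PH and none higher, against 7.67% of all tested genes called lower, with a median log2 fold change of -0.57, and their sum was 33660 to 49320 CPM in HNKO PH and 39550 to 63300 CPM in WT PH. The lowest WT sum was that of mouse 544, and the other WT cultures held 49460 to 63300 CPM, above every HNKO culture. *Alb*, the albumin gene, differed by -0.43 ± 0.18 (edgeR adjusted p = 0.103). Of 10 hepatic stellate cell markers 4 were higher and 1 was lower, where 5.14% of all tested genes were called higher, with sums of 171 to 523 CPM in HNKO PH and 105 to 454 CPM in WT PH. The highest WT sum was again that of mouse 544, and the other WT cultures held 105 to 185 CPM. The 8 cholangiocyte markers summed to 100.1 to 477 CPM in HNKO PH and 38.0 to 242 CPM in WT PH, with 2 higher. No marker of these 3 lists was at 0 in either group of cultures. Their part in the differences of the apolipoprotein genes was not tested.

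Within the cultures, several of these genes varied together from mouse to mouse after removal of the genotype means. Of 45 pairs of genes, 11 had a Pearson r that passed the adjusted threshold, 5 of the 6 pairs within the chromosome 9 cluster and 6 of the 39 others, and 1 pair had a Spearman rho that passed. Over the 12 mice, *Apoa4* and *Apoc3* had a Pearson r of 0.94 (permutation p = 0.00016, adjusted p = 0.00585) and a Spearman rho of 0.80 (permutation p = 0.00422, adjusted p = 0.0591). Without the 2 mice farthest from the median of *Apoa4*, r was 0.82, and within genotype it was 0.93 in HNKO and 0.955 in WT. *Apoa5* and *Apoc3* had r = 0.86 (permutation p = 0.00026, adjusted p = 0.00585) and rho = 0.90 (permutation p = 1e-04, adjusted p = 0.0045), and r was 0.88 without the 2 farthest mice. *Apoa1* and *Apoa4* had r = 0.88 (permutation p = 0.00279, adjusted p = 0.0179) and rho = 0.60 (permutation p = 0.0568, adjusted p = 0.151), but r was 0.47 without the 2 farthest mice, so that relation rested on them. *Apoa1* and *Apoa5* did not pass (r = 0.68, permutation p = 0.0142, adjusted p = 0.0532; rho = 0.60, permutation p = 0.0572, adjusted p = 0.151), and r was 0.23 without the 2 farthest mice. Outside the cluster, *Apoc3* and *Apoh* had r = 0.81 (permutation p = 0.00212, adjusted p = 0.0159) and rho = 0.74 (permutation p = 0.0105, adjusted p = 0.0591), with r = 0.67 without the 2 farthest mice, and *Apoc1* and *Apoe*, neighbours on chromosome 7, had r = 0.76 (permutation p = 0.00144, adjusted p = 0.0134) and rho = 0.71 (permutation p = 0.00704, adjusted p = 0.0591), with r = 0.72 without the 2 farthest mice. The difference between pairs within and outside the cluster was not tested, nor was the share of passing pairs among other genes in the same cultures.

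**Figure D3:**
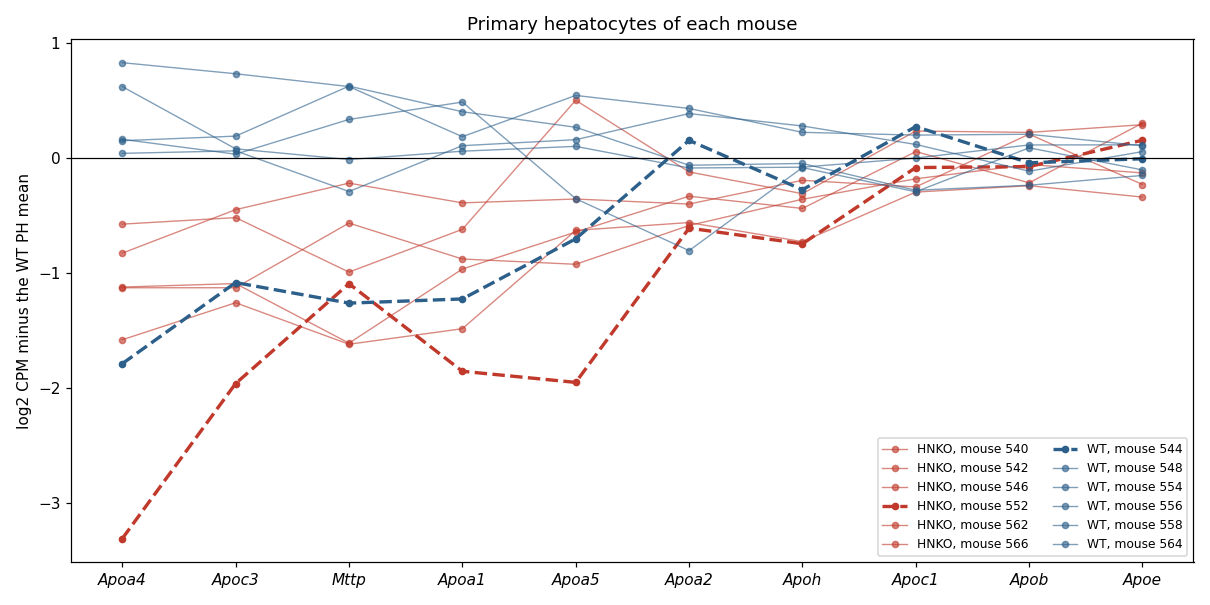
Log2 CPM of each gene in the primary hepatocytes of each mouse, relative to the mean of the 6 WT cultures, with HNKO mouse 552 and WT mouse 544 as thick dashed lines. HNKO cultures lie below the zero line for *Apoa4*, *Apoc3*, *Mttp* and *Apoa1* and around it for *Apoc1*, *Apob* and *Apoe*, and the WT culture of mouse 544 lies within the HNKO range for those first 4 genes.

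Whether the genotype effect differed between sample types was tested as a difference of log2 fold changes. None of the 10 genes passed for CS minus L, where 0% of all tested genes passed. An unadjusted p under 0.05 was found for 1 of the 10, *Apoa2*, and for 673 of all 14932 tested genes. For PH minus L 0 of the 10 passed, on a background of 1.58%. An unadjusted p under 0.05 was found for 2 of the 10 and for 2678 of all 14932 tested genes. The 2 were *Apoa1* at -0.80 ± 0.32 (edgeR adjusted p = 0.165) and *Mttp* at -0.74 ± 0.31 (adjusted p = 0.187). For PH minus CS 0 of the 10 passed, on a background of 0.221%. An unadjusted p under 0.05 was found for 3 of the 10 and for 2116 of all 14932 tested genes. The 3 were *Apoc3* at -0.99 ± 0.31 (adjusted p = 0.126), *Apoa1* at -0.89 ± 0.31 (adjusted p = 0.166) and *Mttp* at -0.74 ± 0.30 (adjusted p = 0.246).

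Those counts depended on 1 culture. Without the WT culture of mouse 544 alone, 2 genes passed for PH minus L, *Apoa1* (-0.97, adjusted p = 0.0232) and *Mttp* (-0.92, adjusted p = 0.0225), and 3 passed for PH minus CS, *Apoa1* (-1.06, adjusted p = 0.0144), *Apoc3* (-1.15, adjusted p = 0.0128) and *Mttp* (-0.92, adjusted p = 0.0254). With the mouse as a block, *Apoc3* passed for PH minus CS (adjusted p = 0.0412). The fit without that culture was chosen after seeing the data. The backgrounds above are of the main fit, and the share of all tested genes called in these other fits is not given here. *Apoe* was the gene with the largest positive difference for PH minus L, at 0.40 ± 0.23 (adjusted p = 0.349).

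The comparison of CS with L addresses dissociation before any culture. In HNKO 0 of the 10 passed where 5.37% of all tested genes were called, and in WT 0 of the 10 passed where 3.50% were called. In HNKO the log2 fold changes were -0.06 to 0.46, the highest being *Apoa2*, with 4185, 5067 and 6840 CPM in CS against 2337, 3800 and 5386 CPM in L (0.46 ± 0.17, edgeR adjusted p = 0.139). With the mouse as a block *Apoa2* passed (0.49, adjusted p = 0.0365). *Apoc3* differed by 0.44 ± 0.22 (adjusted p = 0.297). In WT they were -0.13 for *Apoa4* to 0.27 for *Apob*, with every 95% interval crossing 0.

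After 24 h of culture 9 of the 10 genes were lower than in L in both genotypes. In HNKO 9 of the 10 were lower in PH than in L, on a background of 38.5% of all tested genes called lower, and in WT 9 were lower, on a background of 38.2%. The median log2 fold change of the 10 genes was -2.26 in HNKO and -2.02 in WT, against 0.01 over all genes in both. *Apoa5*, an activator of plasma triglyceride lipolysis, fell most. It had 13.3, 33.3 and 73.5 CPM in HNKO PH against 569, 1538 and 1946 CPM in HNKO L, a 37.8-fold lower level (log2 -5.24 ± 0.34, edgeR adjusted p = 2.82e-15). In WT it was 31.8, 56.8 and 75.7 CPM in PH against 1333, 1633, 1895, 1979 and 2195 CPM in L, 33.4-fold lower (log2 -5.06 ± 0.34, adjusted p = 6.92e-15). No culture came near any liver.

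*Apoa2* of HDL was 7.08-fold lower in HNKO PH than in HNKO L (log2 -2.82 ± 0.19) and 8.11-fold lower in WT (log2 -3.02 ± 0.19). *Apoc1* was 4.84-fold lower in HNKO and 5.79-fold lower in WT, and *Apoh* was 4.87-fold lower in HNKO and 4.67-fold lower in WT. *Apoe* was 3.53-fold lower in HNKO and 4.68-fold lower in WT, and had 2907, 3727 and 4538 CPM in HNKO PH and 3310, 3742 and 3981 CPM in WT PH, where the HNKO range enclosed the WT range. For the pair that builds VLDL, *Apob* was 3.72-fold lower in HNKO and 3.53-fold lower in WT, and *Mttp* was 4.32-fold lower in HNKO and 2.58-fold lower in WT. *Apoa1* was 5.35-fold lower in HNKO and 3.08-fold lower in WT, and *Apoc3* was 4.73-fold lower in HNKO and 3.51-fold lower in WT. The adjusted p of these 8 genes was at most 2.57e-10 in HNKO and at most 1.68e-06 in WT. All 6 HNKO mice and all 5 WT mice with both samples showed the lower level for each of the 9 genes.

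*Apoa4*, made in mice by both liver and small intestine, was the exception. It had 267, 1212 and 1774 CPM in HNKO PH, against 475, 808 and 1153 CPM in HNKO L, a log2 fold change of 0.49 ± 0.35 (edgeR adjusted p = 0.203) with 4 of 6 mice higher in culture, and the groups overlapped. In WT it had 765, 2945 and 4692 CPM in PH, against 821, 1181, 1256, 1288 and 2158 CPM in L. It was 2.25-fold higher in WT PH (log2 1.17 ± 0.38, adjusted p = 0.00563), as were 37.5% of all tested genes, and 4 of 5 mice were higher, all but mouse 544. With the left-out liver included it did not pass (0.73, adjusted p = 0.086). The HNKO difference of *Apoa4* passed without mouse 552 (0.77, adjusted p = 0.0434) and with scaling by total counts (0.91, adjusted p = 0.0201).

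**Figure D4:**
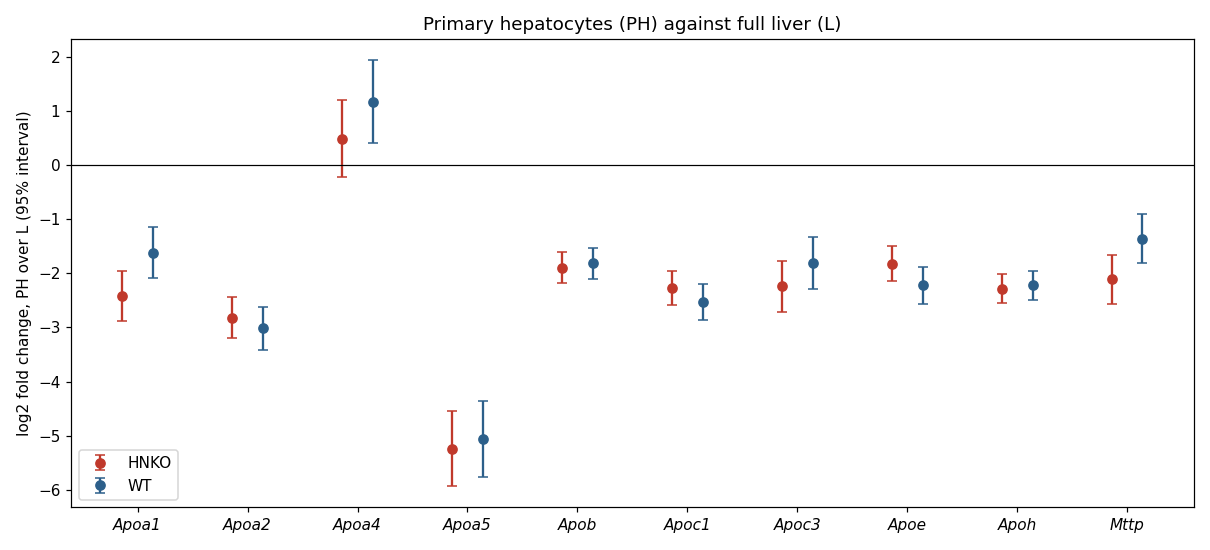
Log2 fold change of PH over L for each of the 10 genes in HNKO and WT mice, with 95% intervals. The other 9 genes lie between -1.37 for *Mttp* in WT and -5.24 for *Apoa5* in HNKO, and *Apoa4* lies above 0, at 0.49 in HNKO with an interval that crosses 0 and 1.17 in WT with one that does not.

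PH against CS, which shares the PH libraries with the comparison above, sets side by side samples from the same lobes. In HNKO 9 genes were lower in PH, where 37.6% of all tested genes were called lower, and *Apoa4* differed by 0.31 ± 0.35 (edgeR adjusted p = 0.42). Over 20 alternatives that difference was 0.08 to 0.94, and it passed under 1 of them. In WT 9 were lower, where 36.8% were called lower, and *Apoa4* was 2.47-fold higher (adjusted p = 0.00139), as were 38.3% of all tested genes. Here all 6 WT mice had more *Apoa4* in PH than in CS, by 0.03 for mouse 544 to 1.84 on the log2 scale, against 3 of 6 HNKO mice. *Apoa5* was 48.3-fold lower in HNKO and 34.6-fold lower in WT. Against L, 38.5% of all tested genes were called lower in HNKO PH and 38.2% in WT PH. Of 12 Kupffer cell markers 11 were lower in HNKO PH and 10 in WT PH, with 1 higher in each, and of 6 lymphocyte markers 6 were lower in both. Of 8 cholangiocyte markers 5 were lower and 1 higher in HNKO PH, and 3 were lower and 1 higher in WT PH. Hepatocyte markers were lower too, 11 of 11 in both genotypes, with median log2 fold changes of -3.06 in HNKO and -2.45 in WT. Against CS, 3 of the 8 cholangiocyte markers were higher and 1 lower in WT PH, and 1 was higher and 0 lower in HNKO PH. What part of these shifts comes from the makeup of the samples was not tested.

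Among 16 other genes of plasma apolipoproteins and HDL-associated proteins, 14 were tested and none was called for genotype in L or CS. In PH 2 of the 14 were lower and 2 higher in HNKO, with a median of -0.09, where 7.67% of all tested genes were called lower and 5.14% higher. *Lcat*, which esterifies cholesterol on HDL, averaged 94.9 ± 22.5 CPM in HNKO PH and 163 ± 39.3 CPM in WT PH (SD, n = 6 each), a log2 fold change of -0.78 ± 0.17 (edgeR adjusted p = 0.00383). *Apoc4*, a neighbour of *Apoc1*, differed by -0.60 ± 0.19 (adjusted p = 0.0344). *Clu*, also called apolipoprotein J, averaged 4903 ± 1086 CPM in HNKO PH and 2561 ± 747 CPM in WT PH, a log2 fold change of 0.94 ± 0.17 (adjusted p = 0.000954). *Saa4*, an HDL-associated serum amyloid A protein, differed by 1.24 ± 0.41 (adjusted p = 0.0421), with an SD as large as 195 CPM around 263 CPM in HNKO PH. In WT PH against L 8 of the 14 were lower and 3 higher, where 38.2% of all tested genes were lower and 37.5% higher, with *Clu* at 1.13 ± 0.18 and *Apol9a* at 2.42 ± 0.17 among the higher and *Apoc4* at -3.87 ± 0.21 and *Apom* at -2.18 ± 0.15 among the lower.

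Of 28 genes of particle assembly and secretion, 1 was lower in HNKO L, none was called in CS, and 3 were lower in HNKO PH, with none higher in any, where 1.51% of all tested genes were called in L in either direction and 7.67% were called lower in PH. *Dgat1*, which makes triglyceride, was the one in L, at 21.6 ± 3.34 CPM in HNKO L and 27.7 ± 1.95 CPM in WT L (log2 -0.36 ± 0.09, edgeR adjusted p = 0.0378). In PH *Cidec*, a lipid droplet protein, averaged 1.76 ± 0.77 CPM in HNKO and 9.85 ± 6.86 CPM in WT (log2 -2.48 ± 0.49, adjusted p = 0.00174). The lipases *Aadac* (log2 -0.87 ± 0.19, adjusted p = 0.00333) and *Ces1d* (log2 -1.18 ± 0.36, adjusted p = 0.0273), which mobilise stored triglyceride, were the others. In WT PH against L 17 of the 28 were lower and 7 higher, against 38.2% and 37.5% of all tested genes. *Tm6sf2*, needed for full lipidation of VLDL, was at 6.55 ± 2.19 CPM in WT PH and 70.7 ± 3.45 CPM in WT L, and *A1cf*, a partner of the *Apob* mRNA editing enzyme, was at 12.2 ± 3.29 CPM in WT PH and 112 ± 19.4 CPM in WT L.

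Of 17 genes of uptake and receptors, none was called for genotype in L or CS, and 2 were lower and 1 higher in HNKO PH, where 7.67% of all tested genes were lower and 5.14% higher. *Lrp1*, a large clearance receptor, was at 321 ± 35.8 CPM in HNKO PH and 319 ± 53.4 CPM in WT PH. *Vldlr* was lower in HNKO PH at 58.5 ± 35.4 CPM, against 152 ± 74.8 CPM in WT PH (log2 -1.38 ± 0.42, edgeR adjusted p = 0.0285), and *Stab2*, a scavenger receptor of sinusoidal endothelium, had a log2 fold change of -0.86 ± 0.24 (adjusted p = 0.0159). *Lrpap1*, the receptor chaperone, was higher by 0.37 ± 0.09 (adjusted p = 0.0101). In WT PH against L 10 of the 17 were lower and 2 higher (38.2% and 37.5% of all tested genes), and *Vldlr* was among the higher (log2 2.92 ± 0.48), as it was in HNKO (1.73).

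Of 19 genes of lipolysis and remodelling, none was called for genotype in L or CS, and 4 were lower and 1 higher in HNKO PH, where 7.67% of all tested genes were lower and 5.14% higher. Hepatic lipase *Lipc* was at 78.1 ± 33.8 CPM in HNKO PH and 141 ± 35.6 CPM in WT PH (log2 -0.86 ± 0.21, adjusted p = 0.00873). *Soat2*, which esterifies cholesterol, and *Abcg8*, a sterol exporter, were also lower, and *Npc2*, a lysosomal cholesterol carrier, was the higher one (0.46 ± 0.15, adjusted p = 0.0379). In WT PH against L 16 of the 19 were lower, against 38.2% of all tested genes, and none was higher, among the lower being the endothelial lipase *Lipg* (log2 -7.21 ± 0.40), at 0.23 ± 0.19 CPM in WT PH and 34.4 ± 9.47 CPM in WT L.

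Of 29 transcriptional regulators of apolipoprotein genes, none was called for genotype in L or CS, and 6 were lower and 2 higher in HNKO PH, where 7.67% of all tested genes were lower and 5.14% higher. *Hnf4a*, a nuclear receptor that binds promoters of many apolipoprotein genes, was at 258 ± 62.5 CPM in HNKO PH and 399.5 ± 93.5 CPM in WT PH (log2 -0.63 ± 0.16, edgeR adjusted p = 0.00888). *Creb3l3*, a membrane-bound factor of the fasted liver known to act on *Apoa4* in mice, averaged 38.8 CPM in HNKO PH and 65.1 CPM in WT PH (log2 -0.74 ± 0.25, adjusted p = 0.0425). *Foxo1*, *Ppara*, *Rxra* and *Mlxipl* were also lower, with log2 fold changes of -0.57, -0.92, -0.51 and -0.52. *Nr2f2*, an orphan nuclear receptor, was higher (log2 0.53 ± 0.17, adjusted p = 0.0339). In WT PH against L 21 of the 29 were lower and 2 higher, where 38.2% and 37.5% of all tested genes were, with *Cebpa* (log2 -3.60 ± 0.17) among the lower and *Foxo1* (0.88 ± 0.15) among the higher. In HNKO PH against L 22 were lower and 4 higher, where 38.5% and 37.7% of all tested genes were. No link between a regulator and the levels above was tested.

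The genes most like these 10 were sought by Pearson r of log2 CPM with the mean of the 10 standardised profiles, among 4395 other genes with a mean log2 CPM of at least 5. Over the 35 libraries, which differ mostly by sample type, they were *1300017J02Rik* and *Rdh7* (r = 0.989 each), *Slc27a5* (0.988), *Azgp1* (0.987) and *Abcc6* (0.986). After removal of the 6 group means they were *Slc27a5* (0.896), *Ugt1a1* (0.895), *Proc* (0.889), *Asgr2* (0.875) and *Cyp2d10* (0.871). These values share libraries and scaling and are a description. Of the 10 genes themselves, each against the mean of the other 9, *Apoa4* had an r of -0.23 over the libraries and the rest had 0.93 to 0.98. With group means removed *Apoa4* had 0.40, *Apob* the lowest value of 0.26 and *Apoh* the highest of 0.84.

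The liver of mouse 558 differed from the other 5 WT livers by transcript. Genes with short exon sets were far higher there, with *Apoc1* (0.744 kb of exon) 2.55, *Apoa1* (1.24 kb) 2.52 and *Apoa2* (0.537 kb) 2.29 above the mean of the other WT livers on the log2 CPM scale. The longest were lower, with differences of -1.39 for *Apob* (13.9 kb) and -1.56 for *Mttp* (6.21 kb), and *Apoh* (1.59 kb) differed by -0.36. With that library included, 4 of the 10 genes were called lower in HNKO L, namely *Apoa2*, *Apoc1*, *Apoc3* and *Apoe*. The share of all tested genes called in that fit is not given here.

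**Figure D5:**
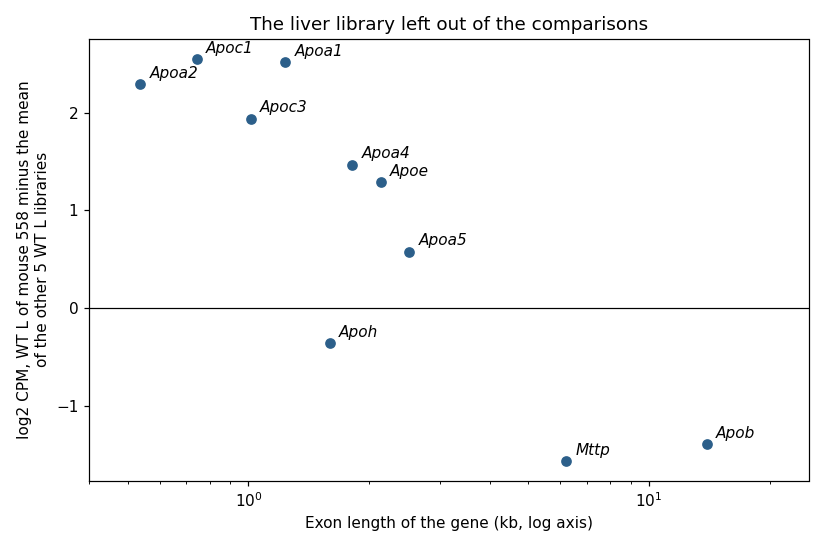
Log2 CPM in the liver of WT mouse 558 minus the mean of the other 5 WT livers, against the exon length of each gene in kb (log axis). *Apoc1*, *Apoa1* and *Apoa2*, at 0.537 to 1.24 kb, lie 2.29 to 2.55 above the other livers, and *Apob* lies at -1.39 and *Mttp* at -1.56.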

How the data were processed

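Total RNA of 36 samples (liver, cell suspension and primary hepatocytes of 12 mice, 500 ng each) was depleted of ribosomal RNA and sequenced from both ends with a stranded kit. The deposited values were raw fragment counts per gene, which the authors made by aligning to GRCm38 (STAR 2.7.2b per the labels, whereas the methods of the study name an earlier version for this experiment) and counting with featureCounts 1.6.4, with both ends aligned. The strand setting is not given in the sources used here. The authors left out 1 library of low quality, and here the liver of WT mouse 558 was left out. Of 54232 gene IDs 54079 had a symbol, and no column of the table was without a sample.

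Counts were scaled by TMM, and genes were kept by filterByExpr with a minimum count of 10. The 39300 genes not tested held 0.086% of counts. All groups were compared in 1 fit over 35 libraries with the quasi-likelihood test of edgeR 4.0.16 in R 4.3.3, without a mouse block. Benjamini-Hochberg adjustment was over 14932 genes, with a threshold of 0.05. HNKO and WT animals were separate, whereas CS, PH and L came from the same mice, a pairing that the main fit left out. Intervals were 95%, and log2 CPM used a prior count of 2. Alternatives were DESeq2 1.42.0, limma 3.58.1 (voom, within-mouse correlation 0.157), the mouse as a block, other scaling, no filter, only the groups compared, all libraries, and each mouse left out. Samples of the same mouse deviated together, with median r of 0.324 for L and CS, 0.101 for L and PH and 0.156 for CS and PH, against -0.039, -0.016 and -0.028 between mice. Mouse numbers come from the labels. All 10 genes are named, and from each other pathway list the genes called for genotype in any sample type and up to 4 with the smallest p for PH against L in WT. The 10 genes and the lists were chosen with earlier results of these data known. Scripts were tested on simulated data. Some genes of the lists are not reported here.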

Additional observations from a re-analysis of the deposited data

Results flagged for a closer look

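Dixon's criterion was applied to 60 groups of values (10 genes in 6 groups of libraries). Chance gives about 1 in 20 for independent groups, but these share libraries and are not independent. In 9 of them the lowest library stood apart from the rest of its group. On the log2 CPM scale, HNKO mouse 552 was that library in L for *Apoc1* (10.47, group mean 11.18), *Apoe* (12.91, mean 13.66) and *Apoh* (10.50, mean 11.06), and in PH for *Apoa4* (8.06, mean 9.94). WT mouse 544 was that library in PH for *Apoa1* (10.17, mean 11.40) and *Apoa4* (9.58, mean 11.37). The others were HNKO mouse 566 in L for *Apob* (11.87, mean 12.51), WT mouse 548 in L for *Apoa1* (12.78, mean 13.10) and WT mouse 564 in L for *Apoc1* (11.16, mean 11.55).

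In the liver of WT mouse 558, which was left out of the main fit, 7 genes lay above every other WT liver on the log2 CPM scale, computed there over all 36 libraries. *Apoa1* was at 15.40 against a highest value of 13.02 in the other WT livers, *Apoa2* at 14.63 against 12.47, *Apoa4* at 11.57 against 10.79 and *Apoa5* at 11.16 against 10.95. *Apoc1* was at 13.89 against 11.50, *Apoc3* at 12.86 against 11.04 and *Apoe* at 15.14 against 13.98.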

How the results depend on the processing

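Over 2450 alternative values of the 10 genes, 40 gained or lost a call, 0 called values reversed, and 53 values called in neither fit changed sign. For genotype in L, 0 genes were called, against 2 with DESeq2, 4 with all 36 libraries, 1 with the mouse as a block (limma voom) and 0 to 1 without single mice. For genotype in PH, 5 were called, against 0 with only the groups compared and 4 to 6 without single mice, and *Apoa1* lost its call with all 36 libraries (adjusted p = 0.0833). Over all genes 1913 were called there, against 3 with only the groups compared. For the other alternatives the number of all tested genes called is not given here. For CS against L in HNKO, 0 became 1 with the mouse as a block. For the difference PH minus L, 0 became 2 without the WT culture of mouse 544, 1 without mice 544 and 552, and 0 to 2 without single mice. For PH minus CS, 0 became 1 with the mouse as a block, 3 without the WT culture of mouse 544, 2 without mice 544 and 552, and 0 to 2 without single mice. The alternatives without that culture and without mice 544 and 552 were chosen after seeing the data. Scaling by total counts moved the median of all genes by 0.182 for genotype in L, and by 0.461 in HNKO and 0.556 in WT for PH against L. The cause of these changes was not tested.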
